A study of Mus musculus with 6 samples.

Results

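The genes described here are the ligands, receptors, SMAD proteins and ID proteins of the bone morphogenetic protein (BMP) and transforming growth factor beta (TGF-beta) pathways, read in RNA of the mouse spinal cord with and without Sox2 in astrocytes. They were chosen by name: protein-coding genes whose mouse symbol begins with Bmp, Gdf, Tgfb or Smad and a digit, or with Bmpr, Tgfbr or Acvr, together with Id1, Id2, Id3 and Id4. At least 30 reads over the 6 libraries were required, and 45 of the 35275 genes in the deposited tables met the rule. Another 6 genes had a matching symbol but fewer reads (Bmp8a, Gdf15, Gdf2, Gdf5, Gdf3 and Bmp10). The members nearest the limit were Bmp15 and Bmp8b with 42 and 32 reads, and the nearest genes below it were Bmp8a and Gdf15 with 28 and 26 reads. Of the 45 members, 43 passed edgeR's filter on low counts and were tested, all but Bmp15 and Bmp8b. No measured difference between the groups entered the rule. Bmp1 (a metalloprotease), Bmp2k (a kinase), Tgfb1i1 and Tgfbrap1 match by symbol and are not ligands, receptors or SMADs.

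BMP and TGF-beta ligands are secreted dimers that bring type I and type II receptor kinases together at the cell surface. The type II receptor activates the type I receptor, which phosphorylates SMAD1, SMAD5 and SMAD9 in the BMP branch or SMAD2 and SMAD3 in the TGF-beta and activin branch. Phosphorylated SMADs join the common SMAD4 and enter the nucleus, while SMAD6 and SMAD7 inhibit signalling. ID genes are classical targets of the BMP branch, and their products are helix-loop-helix proteins without a DNA-binding region that hold back other helix-loop-helix factors. In the developing spinal cord BMP signals pattern the dorsal side and favour astrocyte over oligodendrocyte fates.

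The libraries were made from poly(A) RNA of whole spinal cords, taken from 3 Sox2 cKO and 3 control (Ctrl) mice of the C57BL/6 strain, none of them treated. Sox2 cKO mice carried the mGfap-Cre transgene and 2 floxed Sox2 alleles, so that Cre made from the mouse Gfap promoter deleted Sox2 in most astrocytes and in any other cell in which that promoter was active. For Ctrl mice the sample labels give mGfap-Cre with wild-type Sox2, the study's design text gives either mGfap-Cre or the floxed allele alone, and the methods give floxed littermates, so it cannot be said whether the Ctrl mice of these libraries carried Cre. The sample characteristics give an age of 90 days and the protocol 80 days, and mice of both sexes were used in each group, with the sex of each library not assigned here. The numbered columns of the tables match no sample name, so libraries are called by number: libraries 2, 4 and 6 are Ctrl and libraries 1, 3 and 5 are Sox2 cKO, as the mouse numbers in the study give them.

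Libraries held between 21507911 and 28392184 counted reads, with overlapping depths in the groups. Sox2 was examined first as a check of the groups, and its log2 fold change was -2.86 (standard error 0.24, edgeR adjusted p = 0.00096), with every Sox2 cKO library below every Ctrl library. Neuron markers summed to 3540 to 4590 CPM (counts scaled to the size of the library, with TMM factors) over the 6 libraries, and oligodendrocyte markers to 31300 to 35100 CPM, so both cell types of the labelled tissue were present. Astrocyte markers summed to between 8540 and 10300 CPM in Ctrl and to between 6610 and 6840 CPM in Sox2 cKO, with 5 of 10 called lower by edgeR (Gfap, Aqp4, Slc1a2 and Slc1a3 among them) and S100b called higher. Oligodendrocyte precursor markers summed to 535 to 608 CPM in Ctrl and 406 to 469 CPM in Sox2 cKO, with 5 of 6 called lower (Pdgfra, Cspg4, Gpr17 and Ptprz1 among them). Of the neutrophil markers, 4 of the 5 tested were called higher (S100a8, S100a9, Camp and Ngp), at summed levels of 10 to 15.8 CPM in Ctrl and 20.1 to 63.4 CPM in Sox2 cKO, and 1 of 5 ependymal markers was called lower (Foxj1). None of the 6 oligodendrocyte, 7 neuron, 7 microglia, 4 Schwann cell and 5 red cell markers was called by edgeR, against 2, 1, 2, 0 and 0 by DESeq2 and 1, 1, 3, 0 and 0 at an unadjusted edgeR p below 0.05. Over all genes tested, edgeR called 24.6% and DESeq2 28.1%. With a correction for gene length, described below, edgeR called 2 of the 10 astrocyte markers, both lower, and 4 of the 6 oligodendrocyte precursor markers. It then called 3 of the 5 neutrophil and 1 of the 5 ependymal markers, beside 13.1% of all genes. In RNA of whole tissue, fewer cells of a type and less RNA per cell cannot be told apart. The part of these markers in the results below was not tested.

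Levels of different genes were compared on the scale of FPKM (fragments per kilobase of gene, scaled to the reads of the library), which corrects for gene length. Members ranged from a mean over the 6 libraries of 0.0745 FPKM for Bmp8b to 50.1 FPKM for Id2. Id2 and Id4 stood above all other members, with means over the 6 libraries of 50.1 and 40.9 FPKM, followed by Id3 at 15.5 FPKM. Acvr1b, an activin and TGF-beta type I receptor, had a mean of 14.8 FPKM, and Bmpr2, the main BMP type II receptor, had 14.7 FPKM. Gdf11, a ligand of the activin type that acts in spinal cord patterning, led the ligands at 14.3 FPKM, and the inhibitory Smad7 led the SMADs at 14.0 FPKM. These 4 means lay within 1 FPKM of each other, less than the SD of Bmpr2 between Ctrl libraries (2.53 FPKM). Ligands otherwise were low: Tgfb3 had a mean of 9.42 FPKM and Bmp6 of 7.82 FPKM, while Bmp2 and Bmp4 had 1.49 and 1.59 FPKM and Gdf6 had 0.116 FPKM.

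**Figure D1:**
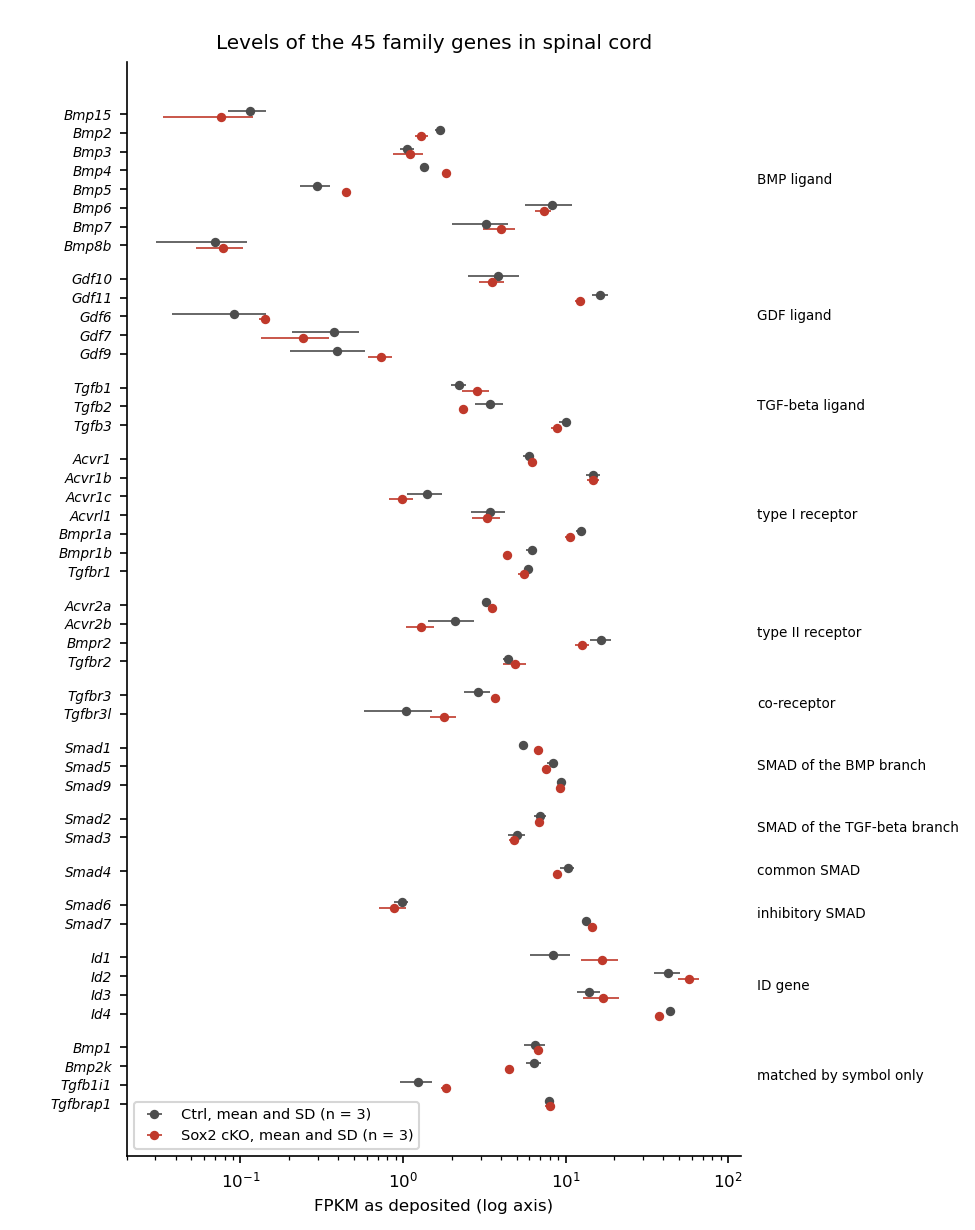
Level of each of the 45 members in FPKM on a log axis, with points for the mean and bars for the SD of the 3 Ctrl (grey) and the 3 Sox2 cKO (red) libraries, grouped by role. The ID genes lie between 8.34 and 57.5 FPKM, and Gdf11, Tgfb3, Bmp6 and the other ligands lie at or below 16.3 FPKM.

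edgeR's quasi-likelihood test called 10 of the 43 members tested at an adjusted p below 0.05, or 23.3%, where it called 24.6% of all 16137 genes tested. The share of members called was therefore near that of all genes. Of the 10, 9 were lower in Sox2 cKO (Bmp2, Gdf11, Tgfb2, Bmpr1a, Bmpr1b, Bmpr2, Smad4, Id4 and Bmp2k), beside 12.4% of all genes called lower, and 1 was higher (Id1), beside 12.2% called higher. The median log2 fold change of the members was -0.12, against 0.02 over all genes tested, and 27 members had a negative and 16 a positive value. For 16 members the 3 libraries of one group all lay on one side of the other group, 10 below and 6 above Ctrl, where the groups did not overlap for 44.7% of all genes tested, 22.1% below and 22.6% above. DESeq2 called 11 members, 10 lower and 1 higher, where it called 28.1% of all genes with an adjusted p, 15.2% lower and 12.9% higher. The method limma on log2(FPKM + 1) called 6 members, 4 lower and 2 higher, where it called 24.3% of the genes tested, 6.2% lower and 18.1% higher.

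Fold changes in these libraries followed gene length (Spearman's rho of -0.48 across all genes tested and -0.33 across the tested members, where genes are not independent replicates). The members are longer than most genes, with a median of 3640 bases against 3060 bases, and 28 of 43 were longer than the median gene tested. With the trend of each library with length removed, edgeR called 7 members, 5 lower (Gdf11, Tgfb2, Bmpr1b, Id4 and Bmp2k) and 2 higher (Id1 and Tgfbr3), where 13.1% of all genes tested were called, 6.99% lower and 6.08% higher. The median of the members was then -0.01, against 0.0 over all genes. RNA integrity numbers are stated only as lower limits, 6.8 in the labels and a higher one in the study's methods, with no value per library. The cause of the length trend was not tested, so length-corrected values are given beside each called member below.

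**Figure D2:**
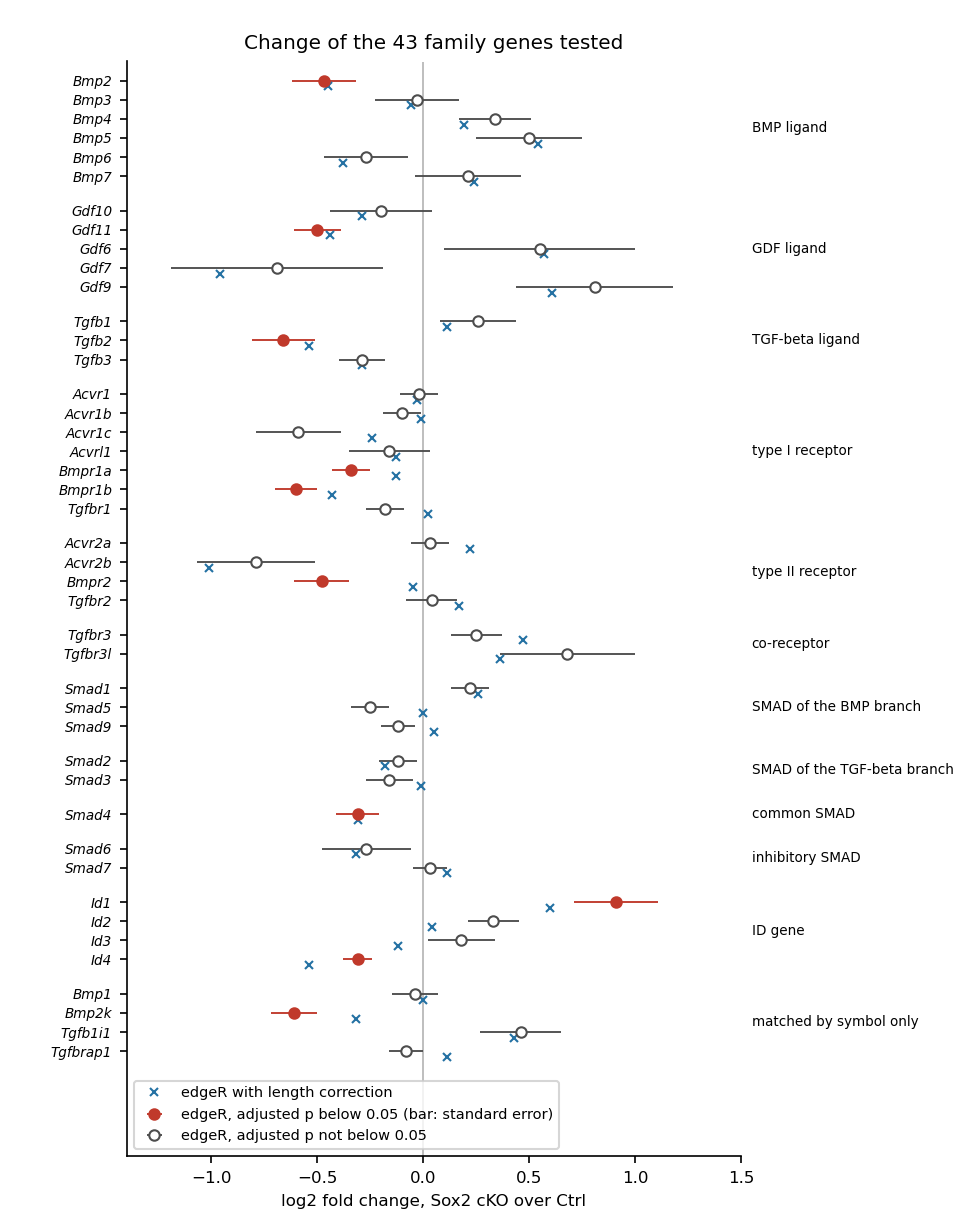
Log2 fold change of Sox2 cKO over Ctrl for the 43 members tested, by role, with edgeR values and their standard errors (filled red circles: adjusted p below 0.05) and values after length correction as blue crosses. The called genes other than Id1 lie left of 0, between -0.66 and -0.31, and length correction brings Bmpr2 and Bmpr1a to -0.05 and -0.13.

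Id1 and Id4 were called in opposite directions, and Id2 and Id3 were not called. Coordinates of genes are those of GENCODE (GRCm38). Id1 (ENSMUSG00000042745, chromosome 2, 152736251 to 152737410, plus strand) had 12.7 CPM in Ctrl library 2, 9.35 CPM in library 4 and 7.87 CPM in library 6, and among the Sox2 cKO libraries 23.6 CPM in library 1, 17.7 CPM in library 3 and 15.0 CPM in library 5. Values of the other genes follow in the same order of libraries (2, 4, 6 and then 1, 3, 5). Every Sox2 cKO library lay above every Ctrl library, and the fold of the fitted values was 1.88 (log2 fold change 0.91, standard error 0.20, edgeR adjusted p = 0.015; 0.60 with length correction, adjusted p = 0.042). Id4 (ENSMUSG00000021379, chromosome 13, 48261228 to 48266026, plus strand), an ID gene known from neural precursors and astrocytes, had 74.1, 73.8 and 78.8 CPM in Ctrl and 58.3, 64.1 and 59.9 CPM in Sox2 cKO. The groups again did not overlap, and Id4 fell by 19.6% (log2 fold change -0.31, standard error 0.07, edgeR adjusted p = 0.018; -0.54 with length correction, adjusted p = 0.016). Id2 had 66.3, 52.3 and 49.6 CPM in Ctrl and 78.8, 71.5 and 61.2 CPM in Sox2 cKO. Ctrl library 2 lay above Sox2 cKO library 5, and the log2 fold change of 0.33 did not pass the test (standard error 0.12, edgeR adjusted p = 0.077; 0.04 with length correction). Id3 had 20.8, 18.9 and 15.7 CPM in Ctrl and 26.4, 18.8 and 17.6 CPM in Sox2 cKO, overlapping ranges with only Sox2 cKO library 1 above all Ctrl libraries. Its log2 fold change was 0.18 (standard error 0.16, edgeR adjusted p = 0.44) and turned to -0.12 with length correction and to -0.02 without library 1.

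Ratios of ID genes within a library do not depend on the scaling of the library. The ratio of Id1 to Id4 CPM was 0.171, 0.127 and 0.0999 in Ctrl and 0.405, 0.277 and 0.25 in Sox2 cKO. It was higher in all 3 Sox2 cKO libraries, with means of 0.311 ± 0.0827 and 0.133 ± 0.0361 (SD, n = 3 each) and a fold of 2.34. Since Id1 alone lay above and Id4 alone below Ctrl in every library, this ratio had to separate the groups, and it is given as a description without a test. Id2 over Id4 had means of 0.744 ± 0.136 in Ctrl and 1.16 ± 0.169 in Sox2 cKO (SD, n = 3 each), again without overlap. In FPKM, Id4 at 43.9 ± 1.04 and Id2 at 42.8 ± 8.0 (SD, n = 3 each) could not be told apart in Ctrl, whereas in Sox2 cKO Id2 stood at 57.5 ± 8.48 and Id4 at 37.8 ± 1.77 (SD, n = 3 each). The 4 ID genes make 6 ratios, looked at after the values had been seen. Id1 over Id3, Id1 over Id2 and Id3 over Id4 also had no overlap, with folds of 1.68, 1.5 and 1.41, whereas Id2 over Id3 overlapped, with means of 3.04 ± 0.233 in Ctrl and 3.42 ± 0.41 in Sox2 cKO (SD, n = 3 each).

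**Figure D3:**
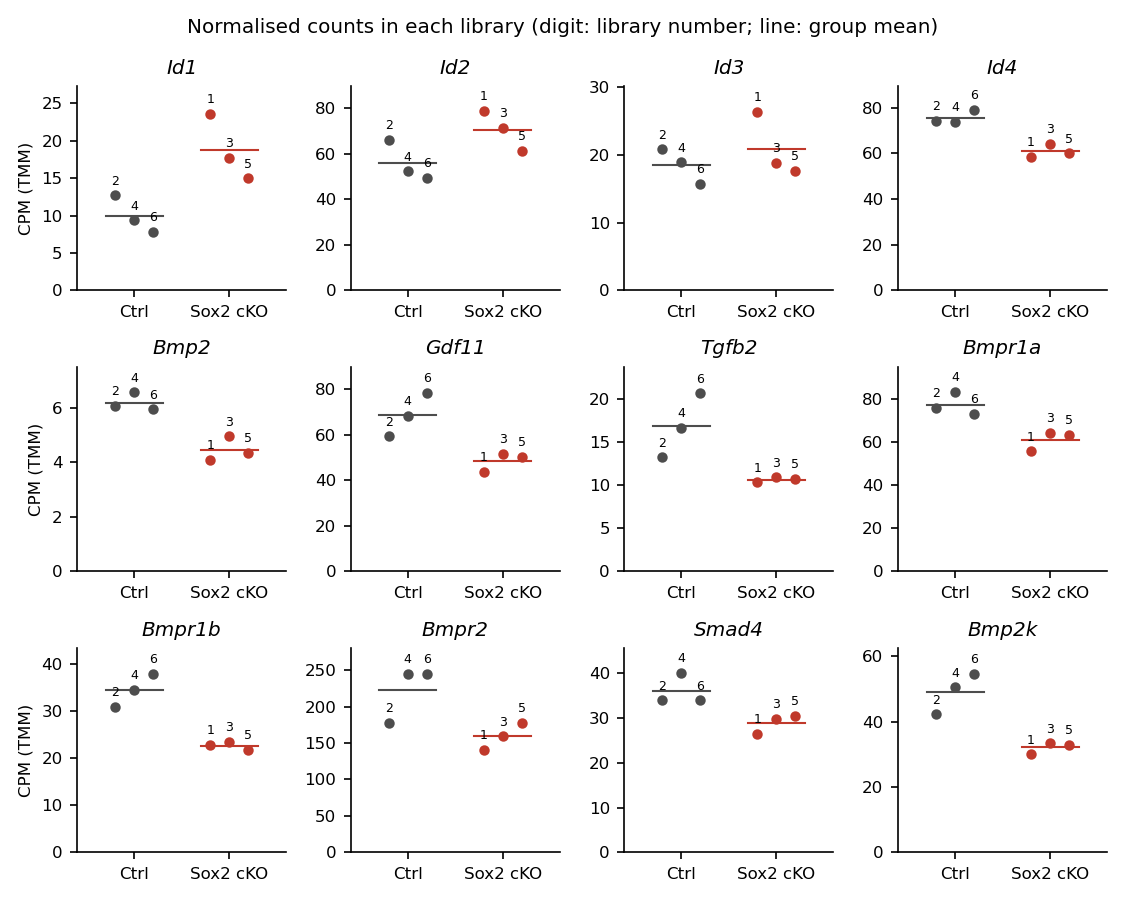
CPM in each library for the 4 ID genes and the other members called by edgeR, with the library number above each point and a line at the group mean; every vertical axis starts at 0. Id1 lies higher and Id4 lower in all Sox2 cKO libraries, and Bmpr2 is the only called gene whose groups touch, at 178 CPM in Ctrl library 2 and Sox2 cKO library 5.

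SOX2 is a transcription factor, and the study lists motif sequences of its most enriched sites in chromatin of the adult cerebral cortex, a tissue other than the one sequenced here. The list holds 1055 sites with coordinates, and those on the chromosome that carries Smad2, Smad4 and Smad7 were left out of the search for members. Among the remaining sites, 5 had a member as the gene with the nearest protein-coding start in GENCODE, 3 of them Id4, 1 Smad6 and 1 Tgfbr3. Whether Smad2, Smad7 or the called Smad4 has such a site was therefore not examined. The sites are shown because Id4 was called lower while Smad6 and Tgfbr3 were not called. Each sequence is written 5′ to 3′ on the strand of the motif as listed, with the 11 bases of the motif in capitals and 9 bases on either side. The first lies in chr13:48227789-48227889 of mm10 (minus strand of the motif), 33.4 kb upstream of the Id4 start, and the second in chr13:48126739-48126839 (plus strand), 134.4 kb upstream. The third lies in chr9:63959222-63959322 (minus strand), inside Smad6 and 62.8 kb past its start, and the fourth in chr5:107251854-107251954 (plus strand), inside Tgfbr3 and 37.7 kb past its start.
Id4, 33.4 kb upstream: acgctagccTTCACAATGACttccagctg
Id4, 134.4 kb upstream: gacaggatcACCACAATAGAggaactcgt
Smad6: tacctctggGAGACAATGGGggcgagggg
Tgfbr3: gtgtacttcTCCACAAAGAAcagctatgc
Of these 4, the Tgfbr3 site holds CAAAG within its capitals. The remaining Id4 site lies 553.2 kb upstream. Nearness is by distance to the start only, and the peaks were not analysed here.

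Among the BMP ligands, Bmp2 was the one called. Bmp2 (ENSMUSG00000027358, chromosome 2, 133552159 to 133562885, plus strand) had 6.06, 6.57 and 5.94 CPM in Ctrl and 4.08, 4.95 and 4.34 CPM in Sox2 cKO, from 93 to 158 reads a library. The groups did not overlap, and Bmp2 fell by 27.8% (log2 fold change -0.47, standard error 0.15, edgeR adjusted p = 0.045), a call that missed the threshold in DESeq2 (adjusted p = 0.054) and with length correction (-0.45, adjusted p = 0.065). Bmp6, the BMP ligand with the highest FPKM and known from the control of iron balance, had 23.9, 24.5 and 13.4 CPM in Ctrl and 17.3, 18.7 and 15.3 CPM in Sox2 cKO. Ctrl library 6 was below every other library, and the log2 fold change of -0.27 did not pass the test (standard error 0.20, edgeR adjusted p = 0.33). The value depended on the Ctrl libraries: it was -0.50 without library 6 (edgeR adjusted p = 0.043, DESeq2 adjusted p = 0.011), -0.12 without library 4 (edgeR adjusted p = 0.73) and -0.15 without library 2 (edgeR adjusted p = 0.61). Bmp4, a ligand of dorsal patterning, had 2.83 to 2.96 CPM in Ctrl and 3.47 to 3.85 CPM in Sox2 cKO, without overlap, and a log2 fold change of 0.34 that did not pass the test (edgeR adjusted p = 0.16). Bmp5 also lay above Ctrl in every Sox2 cKO library (0.50, edgeR adjusted p = 0.17), and Bmp3 and Bmp7 had log2 fold changes of -0.03 and 0.21 with overlapping groups. Bmp7 was between -0.05 (without Ctrl library 6) and 0.47 (without Ctrl library 4) when a library was left out, and Bmp3 between -0.22 and 0.08.

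Among the growth and differentiation factors (GDF), Gdf11 was lower. Gdf11 (ENSMUSG00000025352, chromosome 10, 128882295 to 128891718, minus strand) had 59.2, 68.2 and 78.3 CPM in Ctrl and 43.6, 51.7 and 50.2 CPM in Sox2 cKO. The groups did not overlap, and Gdf11 fell by 29.2% (log2 fold change -0.50, standard error 0.11, edgeR adjusted p = 0.016; -0.44 with length correction, adjusted p = 0.027). The other GDF genes were not called, with log2 fold changes of -0.20 for Gdf10, -0.69 for Gdf7, 0.55 for Gdf6 and 0.81 for Gdf9. Gdf6, Gdf7 and Gdf9 had mean levels below 1 FPKM, and their standard errors were between 0.37 and 0.50.

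Of the 3 TGF-beta ligands, Tgfb2 was called lower. Tgfb2 (ENSMUSG00000039239, chromosome 1, 186622792 to 186705989, minus strand) had 13.2, 16.6 and 20.6 CPM in Ctrl and 10.3, 10.9 and 10.7 CPM in Sox2 cKO. All Sox2 cKO libraries lay below Ctrl and within a narrow range, and Tgfb2 fell by 36.6% (log2 fold change -0.66, standard error 0.15, edgeR adjusted p = 0.017; -0.54 with length correction, adjusted p = 0.037), the largest decrease among the called members. Tgfb3, the TGF-beta ligand with the highest FPKM, had 31.6, 34.7 and 39.4 CPM in Ctrl and 27.8, 26.9 and 31.7 CPM in Sox2 cKO. Ctrl library 2 and Sox2 cKO library 5 met near the same level, and the log2 fold change of -0.29 did not pass the test (standard error 0.11, edgeR adjusted p = 0.072). Tgfb1, the ligand best known from microglia and injury, had a log2 fold change of 0.26 with overlapping groups (edgeR adjusted p = 0.30).

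Among the receptors, edgeR called 2 of 7 of type I (28.6%) and 1 of 4 of type II (25.0%), beside 24.6% of all genes tested. The 3 called genes are all receptors of BMP ligands. Bmpr1b (ENSMUSG00000052430, chromosome 3, 141837136 to 142169425, minus strand), a BMP type I receptor, had 30.8, 34.5 and 37.9 CPM in Ctrl and 22.8, 23.4 and 21.8 CPM in Sox2 cKO. The gap between the groups was wider than the range within either, and Bmpr1b fell by 34.1% (log2 fold change -0.60, standard error 0.10, edgeR adjusted p = 0.012; -0.43 with length correction, adjusted p = 0.020). Bmpr1a (ENSMUSG00000021796, chromosome 14, 34410734 to 34503341, minus strand), another BMP type I receptor, had 75.7, 83.1 and 72.8 CPM in Ctrl and 55.6, 64.1 and 63.1 CPM in Sox2 cKO. Its groups did not overlap, and it fell by 21.1% (log2 fold change -0.34, standard error 0.09, edgeR adjusted p = 0.022), a call that was lost with length correction (-0.13, adjusted p = 0.21). Bmpr2 (ENSMUSG00000067336, chromosome 1, 59763400 to 59879014, plus strand) had 178, 245 and 245 CPM in Ctrl and 141, 159 and 178 CPM in Sox2 cKO, with the lowest Ctrl and the highest Sox2 cKO library level with each other. Bmpr2 fell by 28.5% (log2 fold change -0.48, standard error 0.13, edgeR adjusted p = 0.029), and with 12899 bases it is the longest member, whose value with length correction was -0.05 (adjusted p = 0.68). The ratio of Bmpr1b to Bmpr1a within a library did not separate the groups (means of 0.448 ± 0.0634 in Ctrl and 0.374 ± 0.0335 in Sox2 cKO, SD, n = 3 each, exact permutation p = 0.2).

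The other type I and type II receptors were not called by edgeR. Acvr1b, the receptor with the highest FPKM, had 72.5, 68.6 and 62.2 CPM in Ctrl and 56.7, 69.4 and 63.5 CPM in Sox2 cKO, with overlapping ranges, and its log2 fold change was -0.10 (standard error 0.09, edgeR adjusted p = 0.46). Acvr1c had a log2 fold change of -0.59 (edgeR adjusted p = 0.056, DESeq2 adjusted p = 0.021), and Acvr2b had -0.79 (edgeR adjusted p = 0.062, DESeq2 adjusted p = 0.042), in both cases with overlapping groups. All 7 type I receptors had negative log2 fold changes by edgeR, from -0.02 for Acvr1 to -0.60 for Bmpr1b, but Acvr1 turned to 0.03 with upper quartile scaling and to 0.07 on log2(FPKM + 1), and Tgfbr1 turned to 0.02 with length correction. Tgfbr1, Tgfbr2 and Acvr2a, the main TGF-beta receptors and an activin type II receptor, had values of -0.18, 0.04 and 0.03. Acvrl1, a receptor known from endothelial cells, had -0.16 with overlapping groups (edgeR adjusted p = 0.57).

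Tgfbr3, the co-receptor betaglycan, which presents TGF-beta2 to its receptors, had 20.9, 18.5 and 15.4 CPM in Ctrl and 22.5, 21.5 and 21.3 CPM in Sox2 cKO. Every Sox2 cKO library lay above Ctrl, but the log2 fold change of 0.25 did not pass the test (standard error 0.12, edgeR adjusted p = 0.13). It passed with length correction (0.47, adjusted p = 0.049) and without Ctrl library 2 (0.36, edgeR adjusted p = 0.026), and fell to 0.15 without Ctrl library 6 (edgeR adjusted p = 0.40). Tgfbr3l had a log2 fold change of 0.68 with overlapping groups (edgeR adjusted p = 0.14), which was 1.07 without Ctrl library 2 (edgeR adjusted p = 0.022) and 0.46 without Ctrl library 4 (edgeR adjusted p = 0.37).

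Smad4, the SMAD shared by both branches, was the one SMAD gene called. Smad4 (ENSMUSG00000024515, chromosome 18, 73639009 to 73703780, minus strand) had 33.9, 40 and 33.9 CPM in Ctrl and 26.5, 29.8 and 30.5 CPM in Sox2 cKO. The groups did not overlap, and Smad4 fell by 19.4% (log2 fold change -0.31, standard error 0.10, edgeR adjusted p = 0.046), with DESeq2 on the same side (adjusted p = 0.031) and length correction on the other (-0.31, adjusted p = 0.056). Smad9, the SMAD of the BMP branch with the highest FPKM, had 51.5, 54.3 and 49.8 CPM in Ctrl and 43.7, 49.6 and 50.3 CPM in Sox2 cKO. The ranges overlapped at library 5, and the log2 fold change was -0.12 (standard error 0.08, edgeR adjusted p = 0.34; 0.05 with length correction). Smad1 and Smad5 of the same branch lay on opposite sides of Ctrl, both without overlap: Smad1 had a log2 fold change of 0.22 (edgeR adjusted p = 0.092) and Smad5 of -0.25 (edgeR adjusted p = 0.067), which became 0.26 and 0.00 with length correction. Smad1 was called on log2(FPKM + 1), where its value was 0.27 (limma adjusted p = 0.039).

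Smad2, the SMAD of the TGF-beta branch with the highest FPKM, had 20.2, 22.4 and 19.5 CPM in Ctrl and 19.3, 19.3 and 18.5 CPM in Sox2 cKO. The groups did not overlap by a small margin, and the log2 fold change of -0.12 did not pass the test (standard error 0.09, edgeR adjusted p = 0.37). Smad3 had -0.16 with overlapping groups (edgeR adjusted p = 0.32). Smad7, the inhibitory SMAD induced by both branches, had 59.1, 60.9 and 57.6 CPM in Ctrl and 55.4, 61.9 and 63.9 CPM in Sox2 cKO. Its groups overlapped, and its log2 fold change was 0.03 (standard error 0.08, edgeR adjusted p = 0.81). Smad6, the inhibitor of the BMP branch, had 2.60, 3.24 and 3.23 CPM in Ctrl and 2.99, 2.18 and 2.38 CPM in Sox2 cKO. These ranges overlapped too, and the log2 fold change was -0.27 (standard error 0.21, edgeR adjusted p = 0.35).

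Of the 4 genes matched by symbol only, Bmp2k, a kinase first described in bone cell differentiation, was lower. The CPM of Bmp2k (ENSMUSG00000034663, chromosome 5, 96997689 to 97091867, plus strand) was 42.2, 50.5 and 54.6 in Ctrl and 30, 33.4 and 33.0 in Sox2 cKO. The groups did not overlap, and Bmp2k fell by 34.5% (log2 fold change -0.61, standard error 0.11, edgeR adjusted p = 0.012; -0.32 with length correction, adjusted p = 0.027). Its exons overlap those of Paqr3 on the opposite strand over 1185 bases, and since the strand setting of the counting is not stated, reads of the overlap cannot be told apart. The same holds for 290 exonic bases that Bmpr1a shares with Gm17110 and for 82 that Id4 shares with A330033J07Rik, both on the opposite strand. Tgfbrap1, a protein that binds TGF-beta receptors, had 43.3, 46.7 and 47.2 CPM in Ctrl and 44.1, 44.5 and 41.2 CPM in Sox2 cKO, with overlapping ranges. Its log2 fold change was -0.08 (standard error 0.08, edgeR adjusted p = 0.49), and it turned to 0.02 on log2(FPKM + 1) and to 0.11 with length correction. Bmp1 had -0.04, and Tgfb1i1 had 0.46 with every Sox2 cKO library above Ctrl (edgeR adjusted p = 0.093).

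Promoters were searched for the letters of motifs known for the SMADs of the BMP branch (GGCGCC), for SMAD3 and SMAD4 (GTCTAGAC) and for SOX proteins (ACAAAG and AACAAT), on both strands. The window was 300 bases, 250 before and 50 after the RefSeq start (GRCm38.p6), and 31 members had such a sequence, among them 7 of the 10 called. GGCGCC stood in 11 of 31 members (35.5%) and in 17.9% of 16522 promoters of protein-coding genes, and those 11 included 4 called members, namely Bmp2k, Bmpr1a, Bmpr2 and Id4. ACAAAG stood in 7 members (22.6%, against 19.1% of all promoters), among them the called Bmpr1b and Tgfb2, and AACAAT in 3 (9.68%, against 10.5%), among them Bmpr1b, and GTCTAGAC stood in 1 member, Smad6 (3.23%, against 0.266%). Windows of 26 bases around GGCGCC (in capitals), 5′ to 3′ on the strand of the gene, are shown for 3 of the called genes of the BMP branch. The Id4 window is chr13:48260958-48260983 (plus strand), 148 bases before the RefSeq start. The Bmpr2 window is chr1:59764164-59764189 (plus strand), 105 bases before, and the Bmpr1a window is chr14:34502729-34502754 (minus strand), 198 bases before. For all 3 genes the RefSeq start differs from the GENCODE start given above. By the GENCODE positions the Bmpr2 and Bmpr1a windows lie inside the genes, and the Id4 window lies before the start.
Id4: cgggttgcccGGCGCCccgccctcgc
Bmpr2: ccggcggccgGGCGCCgctgcctgcc
Bmpr1a: cgcgcgcgccGGCGCCtcttgctcgc
GGCGCC consists of G and C only, and the promoters compared were not matched on base composition. A match is a description of the sequence and no evidence of binding.

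Partners of the pathway outside the member rule were listed by role, 126 distinct genes of which 112 were tested. Of these, 23 (20.5%) were called by edgeR, beside 24.6% of all genes tested. The calls were 17 lower and 6 higher, beside 12.4% and 12.2% of all genes. The median log2 fold change of the 112 was -0.02, against 0.02 over all genes. With length correction 14 were called, beside 13.1% of all genes. Extracellular antagonists and other modulators of the ligands were called in both directions. Of 18 tested, 2 were lower (Fstl1 at -0.41 and Crim1 at -0.36) and 3 were higher (among them Kcp at 1.09 and Dand5 at 0.73). The share called was 27.8%, beside 24.6% of all genes. With length correction 3 of the 18 were called, beside 13.1% of all genes. Crim1 (-0.15, edgeR adjusted p = 0.21) and Dand5 (0.50, edgeR adjusted p = 0.11) were then not called. Genes that hold TGF-beta latent or activate it were called lower in 4 of 15 cases and higher in none. The share called was 26.7%, beside 24.6% of all genes, of which 12.4% were lower and 12.2% higher. The 4 called genes were Pcsk6 (-0.51) and Furin (-0.46), proteases that cleave ligand precursors, Itgb8 (-0.70), an integrin chain that activates latent TGF-beta and is made by astrocytes, and Ltbp4 (-0.38), which anchors latent TGF-beta. With length correction 2 of the 15 were called, beside 13.1% of all genes, and the median of the list moved from -0.26 to 0.06. Furin (-0.26, edgeR adjusted p = 0.092) and Ltbp4 (-0.21, edgeR adjusted p = 0.21) then lost their calls, and Pcsk6 (-0.42) and Itgb8 (-0.37) kept theirs. Of 8 co-receptors, Tdgf1 (-0.97) and Rgma (-0.53), a BMP co-receptor and axon guidance protein, were lower. Of 5 activin and other ligands tested, Inha (0.73), the inhibin alpha subunit, was higher. The shares called in these lists were 25.0% and 20.0%, beside 24.6% of all genes. Tdgf1, Rgma and Inha were also called with length correction, at -1.14, -0.51 and 0.48.

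Of 29 intracellular regulators of the pathway tested, 10 were called (34.5%, beside 24.6% of all genes), 9 lower (beside 12.4%) and 1 higher (beside 12.2%), with a median log2 fold change of -0.20. Those with the smallest p-values were Zeb1 (-0.57) and Zeb2 (-0.50), zinc finger factors that bind SMADs, Ppm1a (-0.42), a SMAD phosphatase, and Skil (-0.41), a SMAD corepressor. With length correction 4 of the 29 were called, beside 13.1% of all genes, and the median was -0.05. Zeb1 (-0.37) and Ppm1a (-0.49) were then called, and Zeb2 (-0.15, edgeR adjusted p = 0.12) and Skil (-0.15, edgeR adjusted p = 0.17) were not. Of 14 BMP target genes tested outside the family, 0 were called by edgeR or DESeq2, beside 24.6% and 28.1% of all genes. Among these 14, 1 had an unadjusted edgeR p below 0.05. The median log2 fold change of the 14 was 0.19, with values between -0.29 and 0.52, against a median of 0.02 over all genes. With length correction the median of the 14 was 0.11, against 0.0 over all genes. Of 18 TGF-beta target genes, Ccn2 (connective tissue growth factor) was higher and Skil was lower (11.1% called, beside 24.6% of all genes). Ccn2 had 14.9, 14.4 and 9.56 CPM in Ctrl and 28.4, 27.2 and 25.1 CPM in Sox2 cKO, with all Sox2 cKO libraries close to each other and far above Ctrl (log2 fold change 1.05, standard error 0.15, edgeR adjusted p = 0.012; 0.95 with length correction). Among 11 helix-loop-helix genes whose products meet ID proteins, 0 were called by edgeR and 1 by DESeq2, beside 24.6% and 28.1% of all genes. An unadjusted edgeR p below 0.05 was found for 2 of the 11, and the median of the list was -0.03.

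Some members were low or high in the same single libraries as markers of other cell types, and others were not. Meningeal fibroblast markers summed to 611, 563 and 217 CPM in Ctrl and to 597, 457 and 457 CPM in Sox2 cKO, with none at 0. None of the 7 was called by edgeR or DESeq2, beside 24.6% and 28.1% of all genes, and 1 had an unadjusted edgeR p below 0.05. Ctrl library 6 was thus low in meningeal markers, and it was the lowest library for 11 of the 45 members and the highest for 10. By comparison, Ctrl library 4 was the highest for 15 members and the lowest for 6. Such counts were not made over all genes. The 11 were Bmp6 (13.4 CPM), Bmp7 (7.24 CPM, the others between 11.3 and 16.9), Gdf10 (6.18 CPM, the others between 6.94 and 12.2), Bmp5, Id1, Id2, Id3, Tgfbr3, Bmp1, Tgfb1i1 and Acvr1. Gdf10 was nearly as low in Sox2 cKO library 1 (6.94 CPM), where the meningeal markers summed to 597 CPM. Without library 6, Id1 had a log2 fold change of 0.77, which edgeR did not call and DESeq2 did (adjusted p = 0.0056). Endothelial markers, none at 0, summed to 237, 250 and 265 CPM in Ctrl and to 357, 245 and 257 CPM in Sox2 cKO, where library 1 stood apart, with 2 of 10 called higher (Ly6c1 at 1.09 and Egfl7 at 0.86, the second not called with length correction). Mural cell markers summed to 207 to 242 CPM in Ctrl and 235 to 315 CPM in Sox2 cKO, with the highest sum in library 1 and 1 of 7 called higher (Kcnj8 at 0.87). Library 1 was also the highest for 8 members, namely Id1, Id2, Id3, Bmp7, Tgfb1, Tgfbr2, Tgfbr3 and Tgfbr3l, and the lowest for 17. Acvrl1, the receptor known from endothelial cells, was highest in Ctrl library 4 (16.2 CPM) and had 13.9 CPM in library 1. Without library 1, Id1 had a log2 fold change of 0.72 (edgeR adjusted p = 0.072, DESeq2 adjusted p = 0.016), so its direction did not rest on that library.

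**Figure D4:**
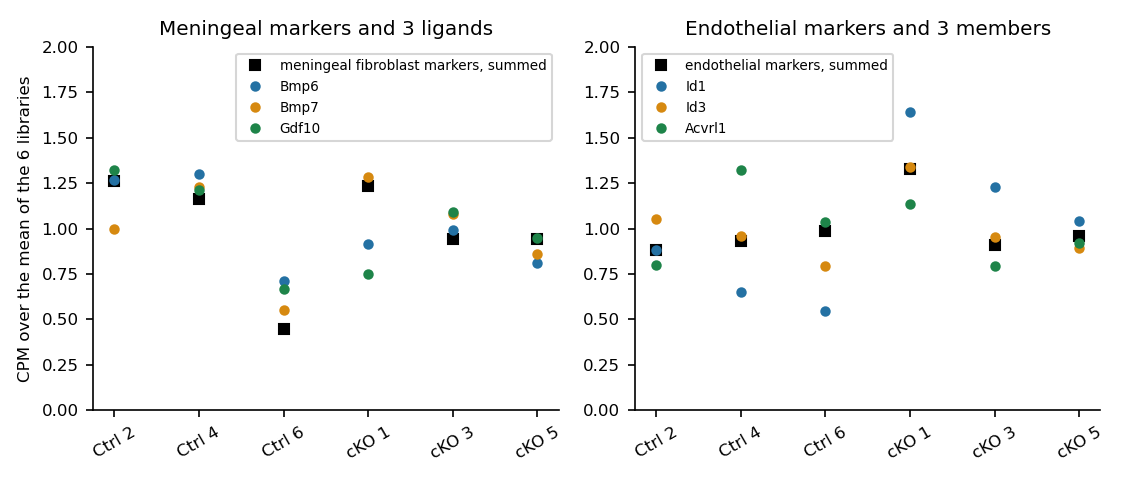
CPM in each library divided by the mean of the 6 libraries, for summed meningeal fibroblast markers with Bmp6, Bmp7 and Gdf10 (left) and summed endothelial markers with Id1, Id3 and Acvrl1 (right). Ctrl library 6 is low for the meningeal markers and the 3 ligands, and Sox2 cKO library 1 is high for the endothelial markers, Id1 and Id3. Acvrl1 is highest in Ctrl library 4, and Gdf10 is also low in Sox2 cKO library 1.

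The number of members called depended on single libraries, as did the number of all genes called. Without Ctrl library 4 or without Sox2 cKO library 1, edgeR called 0 members, although 12 members had an unadjusted p below 0.05 in each case, and over all genes it then called 26 and 8. DESeq2 called 7 and 8 members without the same libraries, beside 1996 and 2342 of all genes. Without Ctrl library 6 edgeR called 4 members (Bmp2k, Bmp6, Bmpr1a and Bmpr1b), beside 1082 of all genes. It called 5 members without Sox2 cKO library 3, beside 1359 of all genes, and 7 without Sox2 cKO library 5, beside 2665. Leaving out Ctrl library 2 gave 17 called members, beside 6119 of all genes. DESeq2 called Gdf11, Id1, Tgfb2, Bmp2k, Bmpr1b and Bmpr2 whichever library was left out. The largest edgeR adjusted p over the fits that each left out 1 library was 0.066 for Bmp2k and Bmpr1b, 0.072 for Id1, 0.075 for Gdf11 and 0.076 for Tgfb2 and Id4. It was 0.098 for Bmpr1a, 0.12 for Bmpr2, 0.15 for Bmp2 and 0.18 for Smad4. Of the 10 called members, Gdf11, Tgfb2, Bmpr1b, Id1 and Bmp2k were called by edgeR, by DESeq2, on log2(FPKM + 1) and with length correction.

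**Figure D5:**
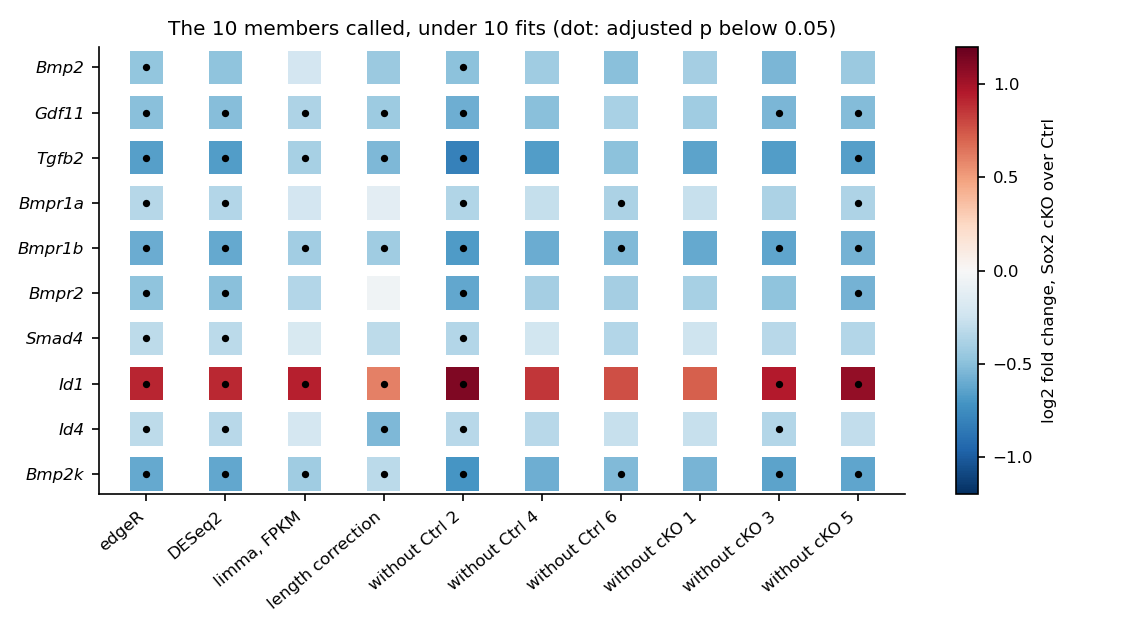
Log2 fold change of Sox2 cKO over Ctrl (colour) for the 10 members called by edgeR, under 10 fits, with a dot where the adjusted p is below 0.05. Colours keep their direction in every column, while dots are missing for all 10 genes without Ctrl library 4 and without Sox2 cKO library 1.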

How the data were processed

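Bulk RNA-seq was done on spinal cords of 3 Sox2 cKO and 3 Ctrl mice. Single-end reads were mapped to mm10 by the authors using STAR 2.5 and counted per gene by HTSeq 0.6.1 (versions from the submitters' processing notes). They deposited these read counts without normalization, and FPKM values, which the authors derived from the same counts, each gene's length and each library's total. Columns were grouped by the study's mouse numbers. Group means of normalised counts matched those listed in the study for 1999 of 1999 genes (relative tolerance of 0.001), and for 0 with the groups exchanged. There were 0 other columns of per-sample values. No library was a copy of another (chi-square per degree of freedom from 6.74 to 83.4 over 15 pairs).

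The main test was that of edgeR 4.0.16 under R 4.3.3 (filterByExpr, TMM, quasi-likelihood test without covariates, Benjamini-Hochberg adjustment over 16137 genes, threshold 0.05). Standard errors were derived from fold changes and test statistics. The biological coefficient of variation was 0.119. With 3 libraries against 3, an exact permutation test cannot go below p = 0.1. Gene positions refer to GENCODE M21 (GRCm38), in which 34490 of 35275 identifiers matched. Gene lengths were recovered from the deposited counts and FPKM.

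Members, lists and tests were chosen with earlier results of these data known. Values in every library are given for ID genes, called members, the member of highest FPKM in each role and genes with a printed site. In each list, at most 4 called genes with the smallest p are named. Alternatives were DESeq2 1.42.0, relative log expression and upper quartile scaling, other filters on low counts, limma 3.58.1 on log2 FPKM with pseudocounts of 1 and 0.1 (mean of at least 0.5 FPKM, or no filter), removal of each library's length trend (lowess, span 0.3), and leaving out each library in edgeR and DESeq2. The fits were tested on simulated data.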

Additional observations from a re-analysis of the deposited data

How the results depend on the processing

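No paired analysis was possible because the columns carry no replicate numbers that could be matched to the sample labels. Leaving out 1 library at a time, with edgeR or DESeq2, gave between 8 and 6119 called genes over the whole table (3970 with all libraries), between 0 and 17 called members (10), of which between 0 and 13 lower (9) and between 0 and 4 higher (1), and between 0 and 33 called pathway genes (23). With edgeR the 0 counts came without Sox2 cKO library 1, where 12 members and 30 pathway genes had an unadjusted p below 0.05. For members they also came without Ctrl library 4, and for higher members without Ctrl library 6 too. limma on log2(FPKM + 1) called 6 members, 4 lower and 2 higher, and so did limma on log2(FPKM + 0.1), which called 15 pathway genes. FPKM shifted the median log2 fold change of all tested genes to 0.09 and 0.11 with these pseudocounts, from 0.02. Without a filter on low values limma called 7 genes over the table, 0 members (0 lower and 0 higher) and 0 pathway genes, where 16 members and 33 pathway genes had an unadjusted p below 0.05, and Sox2 had -2.11 (adjusted p = 0.057). Length correction in edgeR called 2109 genes, 14 pathway genes and 7 members, 5 lower and 2 higher, and without a filter on low counts edgeR called 2 higher members. Among the 21 members given by library, 341 values kept direction and side of the threshold, 76 lost and 12 gained a call, and 12 changed sign. Those were Id3 (-0.12 with length correction, from -0.03 to 0.29 with 1 library left out, negative without Sox2 cKO library 1), Smad9 (0.05 with length correction), Tgfbrap1 (0.02 in the limma fits, 0.11 with length correction) and Smad7 (from -0.03 to 0.09 with 1 library left out, at or below 0 without Ctrl library 6 or Sox2 cKO library 3 or 5), and none of these genes was called by edgeR with all libraries. Over all 43 tested members, 9 changed sign in edgeR when 1 library was left out (Acvr1, Acvr2a, Acvrl1, Bmp1, Bmp3, Bmp7, Id3, Smad7 and Tgfbr2), none of them called. The cause was not tested. Depth limits Bmp15, Bmp8b, Gdf6 and Gdf7, which had between 32 and 64 reads in all.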
